A study of Homo sapiens with 6 samples.

Results

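Human chromosome 19 carries the densest collection of zinc finger genes in the genome, and their RNA levels were followed here in glioblastoma cells with and without forced PD-L1. The members were all protein-coding genes of chromosome 19 whose current symbol is ZNF followed by a number and, in some, a letter. The rule gave 247 genes. Of these, 245 had an identifier among the 57773 genes of the count table, and ZNF229 and ZNF8 had no matching one. ZNF177 and ZNF135 had no read in any dish, 31 genes fell below the low-count filter, and 212 were tested.

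The cells were U251, an established human glioblastoma line with astrocytic features. One group was a stable line made with a lentivirus that overexpresses PD-L1 (CD274), a membrane protein that inhibits T cells through PD-1, and the other was the matching vector control line. Each group had 3 dishes, grown in 10% fetal bovine serum and harvested 12 h after passage, with 3 µg of RNA per library and poly-T selection. Because all dishes of a group came from 1 stable line, p-values reflect dish-to-dish spread only, not variation among separately made lines. PD-L1 and the act of making a separate stable line cannot be told apart.

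Total counts were 15678989 to 22270509 per dish, so 3 counts corresponded to 0.138 to 0.185 CPM (counts scaled to library size). CD274 was at 2.41 ± 0.97 CPM in the Vector dishes and 1300 ± 61.4 CPM in the PD-L1 dishes (SD, n = 3 each), the direction the labels give. The glial and neural genes VIM, NES, SOX2 and CD44 were present at means of at least 42.8 CPM in both groups, whereas the astrocyte genes GFAP and S100B had means of at most 3.18 CPM. Of these 6 genes, 5 fell in the PD-L1 dishes by edgeR's test, where 7.20% of all 15818 tested genes fell. The log2 differences were -1.0 for CD44, -0.91 for GFAP, -0.70 for VIM, -0.64 for NES and -0.39 for SOX2. GFAP was scarce in both groups. The part of these differences in the results that follow was not tested. The immune genes PTPRC, CD3E and CD68 had means of at most 0.42 CPM. PD-L1 dish 3 stood apart from the other PD-L1 dishes: the chi-square per degree of freedom between its counts and theirs was 16.1 and 14.8, against 3.02 between PD-L1 dishes 1 and 2. The Vector pairs lay between these, at 10.1 for dishes 1 and 2, 6.28 for 1 and 3 and 5.25 for 2 and 3. Results are therefore given with and without PD-L1 dish 3. In bulk RNA, fewer cells that express a gene and less RNA per cell cannot be told apart.

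Zinc finger proteins of this family read DNA through tandem fingers, each held together by a zinc ion bound to a pair of cysteines and a pair of histidines. Most of those on chromosome 19 also carry a KRAB box, which recruits the co-repressor TRIM28 and through it the histone methyltransferase SETDB1. Many bind retrotransposons and keep them silent. The genes arose by repeated tandem duplication, so neighbours resemble each other and short reads can match more than 1 gene.

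The finger-coding stretches of the 6 members that passed the test are shown because they display both what the family shares and how far its members differ in base composition. Each run is the first stretch of the longest coding sequence (GENCODE 29) that matches a fixed pattern. The pattern was 1 finger of set spacing followed by the usual linker to the next, so fingers of other forms were passed over. Runs are read 5′ to 3′, with the codons of the zinc-binding cysteines and histidines in capitals.
ZNF121: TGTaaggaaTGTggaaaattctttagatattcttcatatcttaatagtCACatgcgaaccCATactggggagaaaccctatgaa
ZNF529: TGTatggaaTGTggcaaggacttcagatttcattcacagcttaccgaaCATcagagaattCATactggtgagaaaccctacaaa
ZNF574: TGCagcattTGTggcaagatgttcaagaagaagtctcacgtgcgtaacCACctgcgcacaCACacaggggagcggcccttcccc
ZNF628: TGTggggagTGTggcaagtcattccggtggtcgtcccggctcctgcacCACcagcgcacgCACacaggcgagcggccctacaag
ZNF808: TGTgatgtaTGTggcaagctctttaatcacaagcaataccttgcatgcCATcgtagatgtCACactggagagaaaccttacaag
ZNF347: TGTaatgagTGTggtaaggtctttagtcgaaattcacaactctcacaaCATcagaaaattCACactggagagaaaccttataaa
The stretches of ZNF121, ZNF529, ZNF808 and ZNF347 had 35.7%, 40.5%, 42.9% and 35.7% GC, and those of ZNF574 and ZNF628 had 57.1% and 66.7%. At the third codon position, where many changes leave the amino acid as it is, GC ranged from 25.0% in ZNF347 to 85.7% in ZNF628. The encoded pattern was the same by the search rule, and it was written in sequences of different base composition. The whole coding sequences spanned 38.6% GC in ZNF529 to 70.9% in ZNF628.

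Transcripts of these genes were scarce. The 212 tested members had mean levels of 0.498 to 108 CPM with a median of 6.16 CPM, and 194 of them lay below 20 CPM. All members together took 0.202%, 0.201% and 0.183% of the counts of PD-L1 dishes 1 to 3 and 0.183%, 0.185% and 0.187% of Vector dishes 1 to 3. The share of PD-L1 dish 3 was close to the lowest Vector dish, and those of the other PD-L1 dishes were above all Vector dishes. The 31 members below the filter had 1 to 51 counts in total over the 6 dishes, with a median of 11. For them a difference was not detectable at this depth.

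Per kilobase of transcript, the members ran from 0.0969 to 41.6 CPM per kb with a median of 1.51. The 6 most abundant had no recognisable KRAB box. ZNF787 led with 36.5 ± 8.84 CPM per kb in the PD-L1 dishes and 46.7 ± 4.85 in the Vector dishes (SD, n = 3 each). ZNF146, which consists almost wholly of fingers, followed with 29.2 ± 1.27 and 27.8 ± 1.40 CPM per kb, and the SDs of these genes overlapped in the PD-L1 dishes. ZNF428 had 23.4 ± 3.93 and 24.6 ± 2.34, and ZNF581 had 18.5 ± 3.38 and 18.7 ± 0.554 CPM per kb. ZNF579 and ZNF580 came next at overall means of 14.0 and 12.6 CPM per kb. None of the 6 passed the test with all dishes, with log2 fold changes from -0.36 for ZNF787 to 0.07 for ZNF146. ZNF146, ZNF428, ZNF580 and ZNF581 share exon positions with another gene, and since the strand setting was not given, their levels are uncertain.

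**Figure D1:**
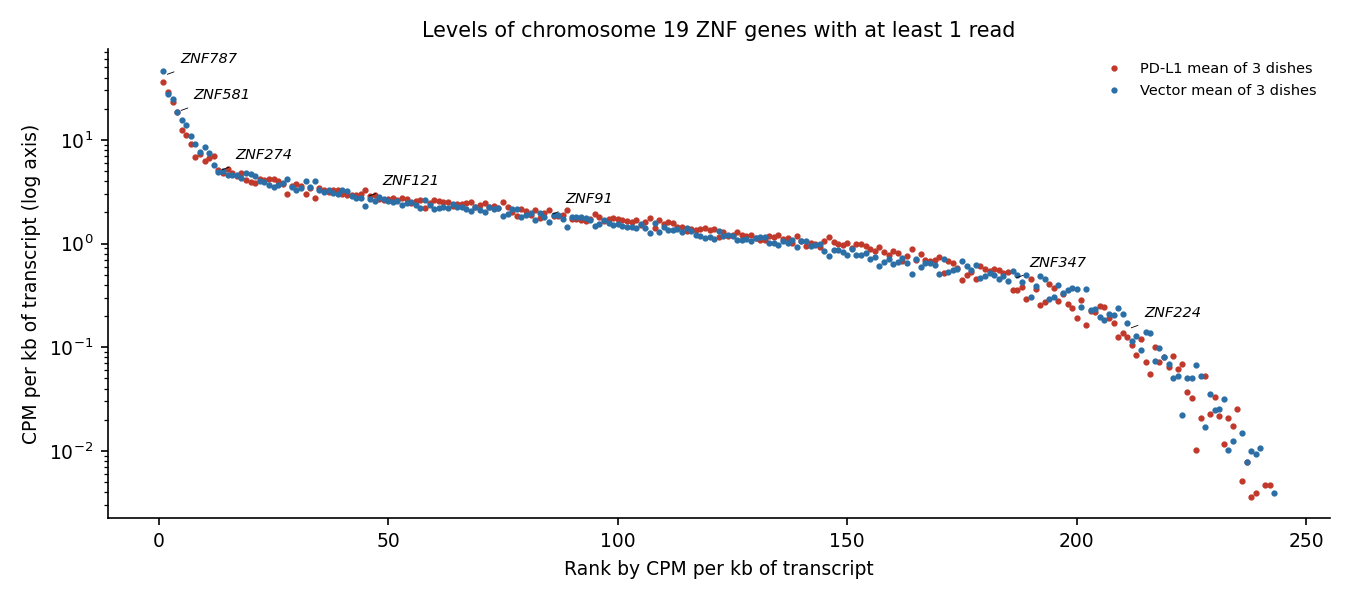
Level of each chromosome 19 ZNF gene with at least 1 read, as CPM per kb of transcript on a log axis, against its rank. The most abundant gene, ZNF787, reached 41.6 CPM per kb, and the median over tested members was 1.51.

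Few members passed the test between the lines. By edgeR's quasi-likelihood test at a false discovery rate (FDR) under 0.05 over all genes, 2 members rose and 4 fell in PD-L1 dishes among the 212 tested (2.83%). The background over all 15818 tested genes was 8.75% in either direction, 1.55% higher and 7.20% lower. A further 32 members had an unadjusted p under 0.05 without passing, which makes 38 of the 212 in all (17.9%). Over all genes, 3735 of 15818 met that threshold. The 2 that rose were ZNF121 and ZNF529, and the 4 that fell were ZNF574, ZNF628, ZNF808 and ZNF347.

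ZNF121, which has 9 fingers and no KRAB match, had 25.9, 24.0 and 20.2 CPM in PD-L1 dishes 1 to 3 and 14.3, 17.5 and 18.3 CPM in Vector dishes 1 to 3. All PD-L1 dishes were above all Vector dishes, with dish 3 the nearest to them. The difference was 1.40-fold (log2 0.49 ± 0.12 SE, FDR 0.0227, edgeR).

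ZNF529, a KRAB gene with 9 fingers, had 14.2, 14.3 and 11.2 CPM in the PD-L1 dishes and 9.30, 9.43 and 10.6 CPM in the Vector dishes. The groups did not overlap, although PD-L1 dish 3 and Vector dish 3 were close. The log2 difference was 0.44 ± 0.13 (SE, FDR 0.0460, edgeR). The call is marginal: it was lost in 6 of 14 alternatives, among them the authors' factors (FDR 0.0516), limma-voom (FDR 0.0507), limma-trend (FDR 0.0552) and the GC offset (FDR 0.0546). Exons of ZNF529 share positions with those of ZNF382 and of the antisense gene ZNF529-AS1, so part of its reads may belong to them. ZNF382 itself had a log2 difference of 0.08 ± 0.16 that did not pass.

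ZNF574, with 18 fingers and no KRAB box, had 9.03, 10.3 and 10.5 CPM in the PD-L1 dishes and 15.5, 14.1 and 13.4 CPM in the Vector dishes. Every PD-L1 dish was lower, and dish 3 did not stand apart. The gene fell by 0.53 ± 0.12 on the log2 scale (SE, FDR 0.0118, edgeR), a 1.45-fold lower level. It overlaps another gene, though not exon on exon, so its level is named as uncertain.

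ZNF628, with 16 fingers and no KRAB box, had 11.2, 10.9 and 12.5 CPM in the PD-L1 dishes and 16.7, 15.6 and 15.8 CPM in the Vector dishes. No PD-L1 dish reached the lowest Vector dish, and the gene fell by 0.47 ± 0.11 on the log2 scale (SE, FDR 0.0146, edgeR). Its 70.4% GC transcript places it among the most GC-rich members, and its exons overlap a divergent transcript, ZNF628-DT. After an offset for GC content and length the log2 difference was -0.28 and no longer passed (FDR 0.0681, edgeR).

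ZNF808, a KRAB gene needed for pancreas development that silences primate-specific retrotransposons, had 1.17, 1.29 and 0.75 CPM in the PD-L1 dishes and 1.79, 2.35 and 1.99 CPM in the Vector dishes. PD-L1 dish 3 was the lowest of all 6. The gene fell by 0.93 ± 0.26 on the log2 scale (SE, FDR 0.0400, edgeR), and by 0.73 without that dish, where it did not pass (FDR 0.0610, edgeR). Its exons overlap those of ZNF701, and 18.9% of its 50-base words also occur in transcripts of other genes, so its level is uncertain.

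ZNF347, a KRAB gene with 17 fingers, had 2.34, 3.33 and 2.89 CPM in the PD-L1 dishes and 4.19, 4.40 and 4.52 CPM in the Vector dishes. All PD-L1 dishes lay below all Vector dishes. It fell by 0.62 ± 0.18 on the log2 scale (SE, FDR 0.0421, edgeR). Like ZNF574, it overlaps another gene outside shared exons and is named as uncertain. ZNF347 and ZNF808 lie in the same neighbourhood of KRAB genes. The calls of all 6 members rested on few dishes: in the 6 fits that leave out 1 dish, ZNF574 passed in 4, ZNF628 in 3, ZNF121 in 2, ZNF529 and ZNF347 in 1 and ZNF808 in 0. Without PD-L1 dish 1 or without Vector dish 1 none of them passed, with log2 differences of -0.46 and -0.47 for ZNF574 and 0.41 and 0.39 for ZNF121.

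**Figure D2:**
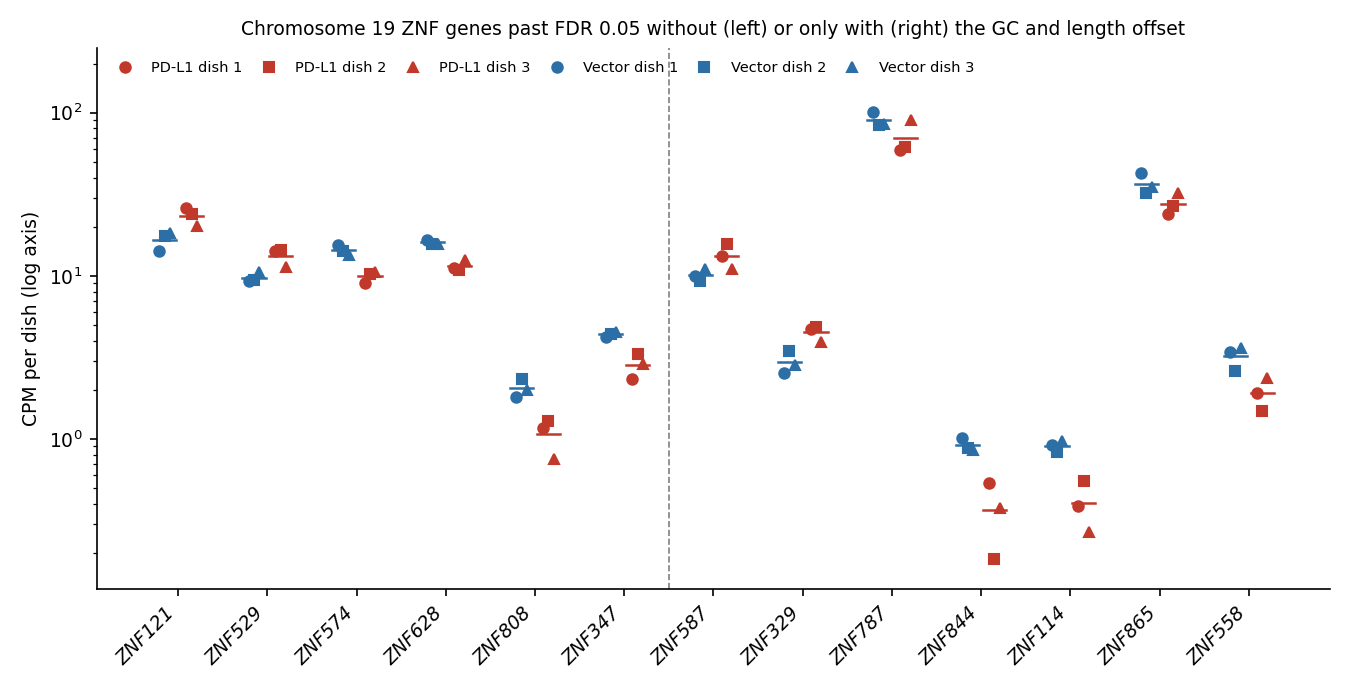
CPM in each dish, on a log axis, of the members that passed an FDR of 0.05 without an offset (left of the dashed line) or only with the GC and length offset (right of it), with red for PD-L1, blue for Vector, a symbol per dish number and bars at the group means. ZNF121 and ZNF529 lie higher in all PD-L1 dishes and ZNF574, ZNF628, ZNF808 and ZNF347 lower.

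Most members moved little. The log2 differences ran from -1.27 to 0.79, 153 of 212 were within 0.3 of 0, and 133 were positive against 79 negative. Their median was 0.08, beside 0.02 over all tested genes. The dishes of the groups did not overlap for 28 members with PD-L1 above and 18 with PD-L1 below (21.7% of 212), where 27.6% of all tested genes did so. Only ZNF844 and ZNF114 differed by at least 1 log2 unit. ZNF844 had 11, 3 and 7 counts in the PD-L1 dishes and 22, 18 and 16 in the Vector dishes, and its log2 difference of -1.27 just missed the threshold (FDR 0.0540, edgeR). ZNF114 had 8, 9 and 5 counts against 20, 17 and 18, with a log2 difference of -1.17 (FDR 0.0596, edgeR). The low counts behind both leave wide errors of 0.38 and 0.36.

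The members with the most negative log2 differences had low levels. The 6 members at or below -0.75 (2.83% of members, beside 4.16% of all genes) were ZNF844, ZNF114, ZNF677, ZNF808, ZNF726 and ZNF93, named here after their values were seen, and they averaged between 0.639 and 1.56 CPM. Only ZNF808 passed the test. All 6 matched a KRAB box, as did 178 of the 212 tested members. On the other side, ZNF404 alone reached 0.75, with 2.10, 1.29 and 1.50 CPM in the PD-L1 dishes and 1.15, 0.782 and 0.915 CPM in the Vector dishes. Its log2 difference of 0.79 ± 0.28 did not pass (FDR 0.103, edgeR). Closest to the threshold from outside were ZNF329 (log2 0.61, FDR 0.0511), ZNF493 (0.62, FDR 0.0516) and ZNF302 (0.30, FDR 0.0522). On the lower side these were ZNF844, ZNF865 (-0.41, FDR 0.0549) and ZNF558 (-0.73, FDR 0.0557).

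The members' differences followed GC content. Transcript GC of the tested members ranged from 33.9% to 71.1% with a median of 42.1%, against 48.4% over all tested genes. Across the 212 members, Spearman's rho between GC and the log2 difference was -0.41, a description across genes that share libraries. All tested protein-coding genes were split by GC into 5 classes of equal size. The lowest class (30.2 to 40.8% GC) held 80 members with a median log2 difference of 0.17, and the highest (58.4 to 76.8% GC) held 20 with a median of -0.20. The medians of all protein-coding genes in those classes were 0.09 and -0.11. The members thus followed the direction of all genes of their base composition, with larger medians at both ends. Class 4 held 4 members and is not described.

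The dishes did not share this trend equally. In the lowest GC class, the members' median deviation from the Vector mean on the log2 scale was 0.26, 0.20 and 0.03 in PD-L1 dishes 1 to 3 and -0.09, 0.08 and 0.03 in Vector dishes 1 to 3. In the highest class it was -0.26, -0.33 and -0.04 in the PD-L1 dishes and 0.13, -0.04 and -0.05 in the Vector dishes. PD-L1 dishes 1 and 2 were high for AT-rich members and low for GC-rich ones, and PD-L1 dish 3 lay at the Vector level in both. All protein-coding genes showed the same split of PD-L1 dishes 1 and 2 from dish 3. Their medians were 0.14, 0.10 and 0.01 in the PD-L1 dishes for the lowest class and -0.22, -0.16 and 0.02 for the highest. In the highest class dish 1 was the lowest for all genes and dish 2 for the members. The source of the GC trend was not tested.

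Transcript length gave a second trend that set PD-L1 dish 3 apart. Over all protein-coding genes its median deviation went from 0.12 in the shortest of 5 length classes to -0.11 in the longest, whereas PD-L1 dishes 1 and 2 went from -0.06 and -0.09 to 0.06 and 0.09. The members, with a median transcript length of 4045 bases, had median log2 differences of 0.02 in the shortest class (16 members) and 0.18 in the longest (33 members). Spearman's rho between length and the log2 difference was 0.21 across members. GC and length were not separated in this description.

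**Figure D3:**
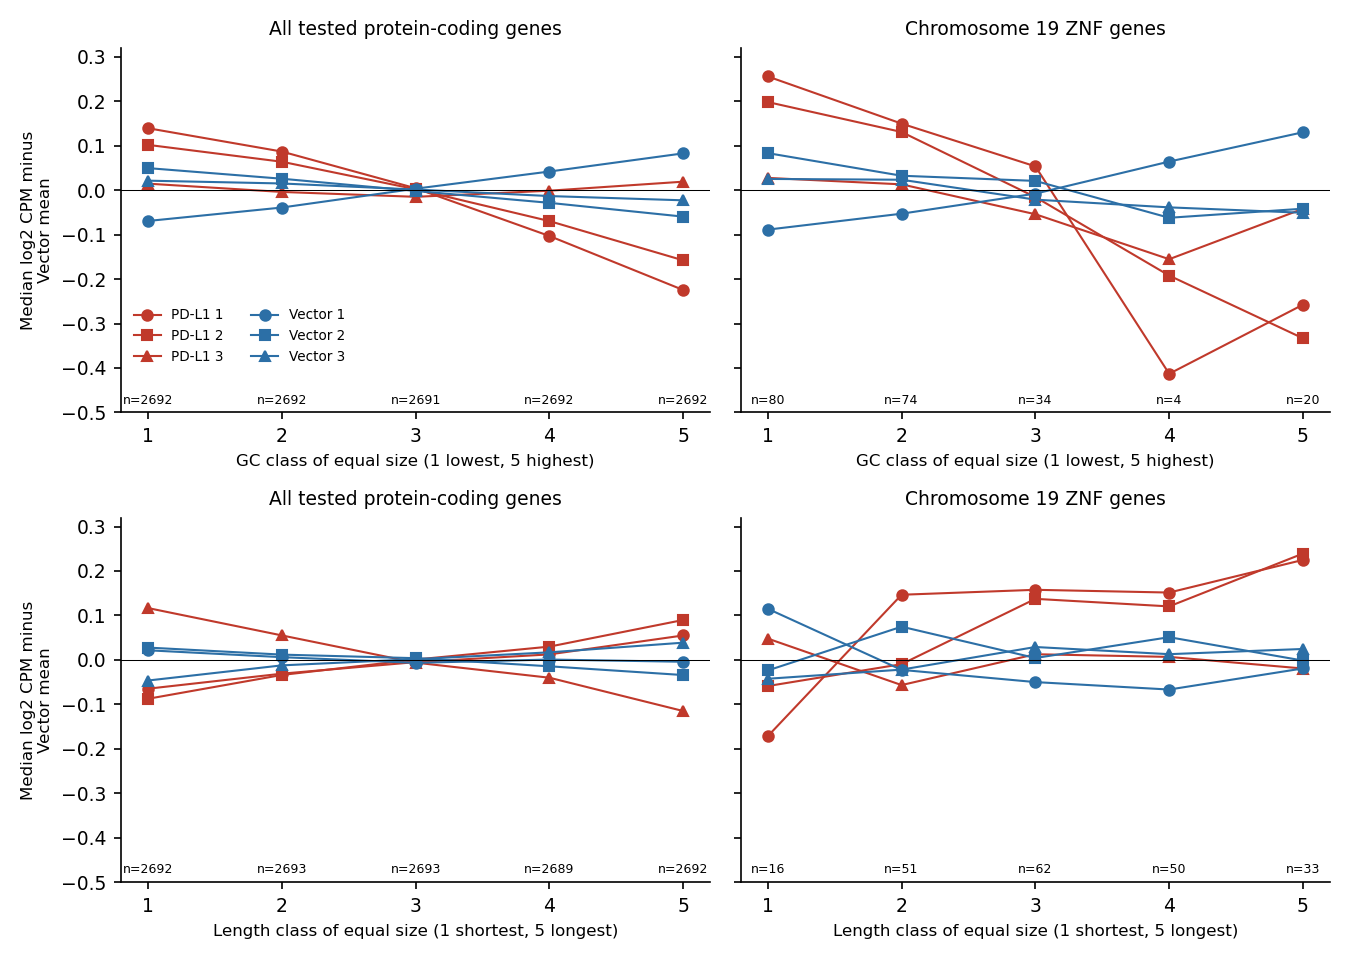
Median log2 CPM minus the Vector mean in each dish, in 5 equal classes of GC content (top) and of transcript length (bottom), for all tested protein-coding genes (left) and for the chromosome 19 ZNF genes (right), with red for PD-L1 and blue for Vector. PD-L1 dishes 1 and 2 fall from 0.26 and 0.20 to -0.26 and -0.33 from the lowest to the highest GC class of the ZNF genes, while dish 3 goes from 0.03 to -0.04. GC class 4 holds 4 ZNF genes.

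With GC content and length fitted as an offset per dish, 4 members rose and 8 fell (5.66%), beside 14.0% of all tested genes (5.57% higher, 8.45% lower). Of the 6 members called without the offset, 5 were called again, all but ZNF628. The median over members moved from 0.08 to 0.06, and rho between GC and the log2 difference from -0.41 to -0.22. The members called only with the offset were ZNF587 and ZNF329, which rose, and ZNF787, ZNF844, ZNF114, ZNF865 and ZNF558, which fell.

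ZNF329 had 4.73, 4.87 and 3.91 CPM in the PD-L1 dishes and 2.53, 3.47 and 2.85 CPM in the Vector dishes, without overlap, and its log2 difference was 0.61 before and 0.63 after the offset (FDR 0.0253, edgeR). ZNF787 had 59.1, 61.8 and 89.8 CPM against 101, 83.6 and 85.4 CPM. PD-L1 dish 3 lay among the Vector dishes, and the log2 difference was -0.36 before and -0.23 after the offset (FDR 0.0275, edgeR). The error of ZNF787 shrank from 0.14 to 0.06 with the offset. ZNF865 had 24.0, 26.9 and 32.1 CPM against 42.5, 32.2 and 35.0 CPM, with PD-L1 dish 3 just under the lowest Vector dish, and -0.22 after the offset (FDR 0.0481, edgeR).

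ZNF558, a KRAB gene with a described role in neural progenitor cells, had 1.90, 1.48 and 2.36 CPM in the PD-L1 dishes and 3.41, 2.59 and 3.61 CPM in the Vector dishes, and passed narrowly with the offset (log2 -0.70, FDR 0.0499, edgeR). ZNF587 had 13.2, 15.7 and 11.0 CPM against 10.0, 9.29 and 11.0 CPM, so that PD-L1 dish 3 matched the highest Vector dish. Its log2 difference was 0.44 with the offset (FDR 0.0168, edgeR). The protein of ZNF587 is 98.1% identical to that of ZNF417 and 37.9% of its 50-base words are shared, so the split of reads between them is uncertain. ZNF417 had a log2 difference of -0.03.

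**Figure D4:**
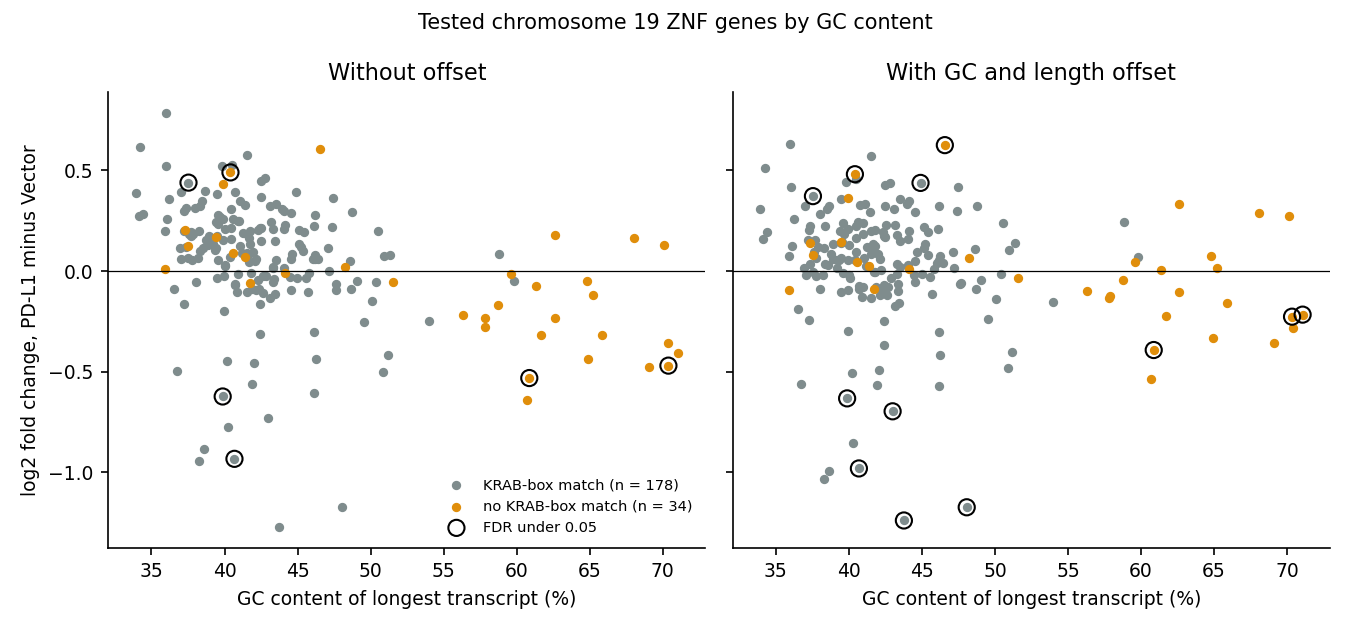
Log2 fold change (PD-L1 minus Vector) against GC content of the longest transcript for the 212 tested members, without (left) and with (right) the GC and length offset; grey points match a KRAB box, orange points do not, and circles mark an FDR under 0.05. The downward slope (rho -0.41) flattens with the offset (rho -0.22).

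Leaving out PD-L1 dish 3 raised the number of members called to 16 higher and 14 lower of 214 tested (14.0%), and the share of all genes called rose with it to 21.6% (7.81% higher, 13.8% lower). Of the 6 members called with all dishes, 5 were called again, all but ZNF808. The 16 higher members had a median GC of 39.0% and the 14 lower ones a median of 61.3%. ZNF787 had the smallest FDR among them (log2 -0.57, FDR 2.66e-05, edgeR). The retrotransposon regulator ZNF91 rose in this fit (log2 0.47, FDR 0.0103), and the abundant GC-rich members ZNF579 and ZNF580 fell (log2 -0.45 and -0.46, FDR 0.00294 and 0.00570). With both the offset and the dish left out, 12 members rose and 11 fell, beside 21.7% of all genes (9.93% higher, 11.7% lower). Without PD-L1 dish 1 or without Vector dish 1, 0 members passed in edgeR's test, beside 3.98% and 3.37% of all genes. In these fits 25 and 22 members had an unadjusted p under 0.05 (11.8% and 10.4%), beside 16.2% and 15.8% of all genes.

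By protein class, the 178 tested KRAB members had a median GC of 41.7% and the 34 others 59.2%. Of the 178 KRAB members 1 rose and 2 fell, and 120 had a positive log2 difference, with a median of 0.10. Among the 34 without a KRAB match, 1 rose and 2 fell, 13 were positive, and the median was -0.06. Over all tested genes 1.55% rose, 7.20% fell and 53.6% had a positive difference. With the offset the medians of KRAB and other members were 0.07 and -0.01. By dish, the KRAB members' median deviation was 0.17, 0.15 and 0.00 in PD-L1 dishes 1 to 3, and that of the others was -0.18, -0.13 and 0.00. In both classes PD-L1 dish 3 was at the Vector mean.

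Along the chromosome, members with at most 2 other protein-coding genes between them formed 13 runs of at least 5 members. In the run from ZNF101 to ZNF254, 23 of 29 tested members had positive differences (median 0.20, median GC 37.5%), and in the run from ZNF565 to ZNF573, which holds ZNF529, 24 of 26 did (median 0.16). The run from ZNF577 to ZNF677 held both fallen KRAB genes, ZNF808 and ZNF347, and 15 of its 27 tested members were positive (median 0.07). The GC-rich run from ZNF579 to ZNF581 went the other way: 0 of 6 tested members were positive, with a median of -0.32 and a median GC of 64.9%. Its median was -0.19 with the offset. Without PD-L1 dish 3, 4 of the 6 fell. ZNF580 was among them, and ZNF581, which overlaps it, was not (log2 -0.18, FDR 0.183, edgeR). In that fit 913 of the 2692 protein-coding genes of the highest GC class fell, as did 13.8% of all genes. The 24 tested members outside any run had a median GC of 53.9% and a median log2 difference of -0.11, and included ZNF574 and ZNF628. The runs above are a selection, and 62.7% of all tested members were positive. In the GC-rich run from ZNF497 to ZNF446 (median GC 58.8%), 3 of 7 tested members were positive. Its median was -0.05, or 0.07 with the offset. In the runs from ZNF627 to ZNF791 and from ZNF264 to ZNF8, 6 of 14 and 20 of 32 tested members were positive. No run was tested as a unit.

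**Figure D5:**
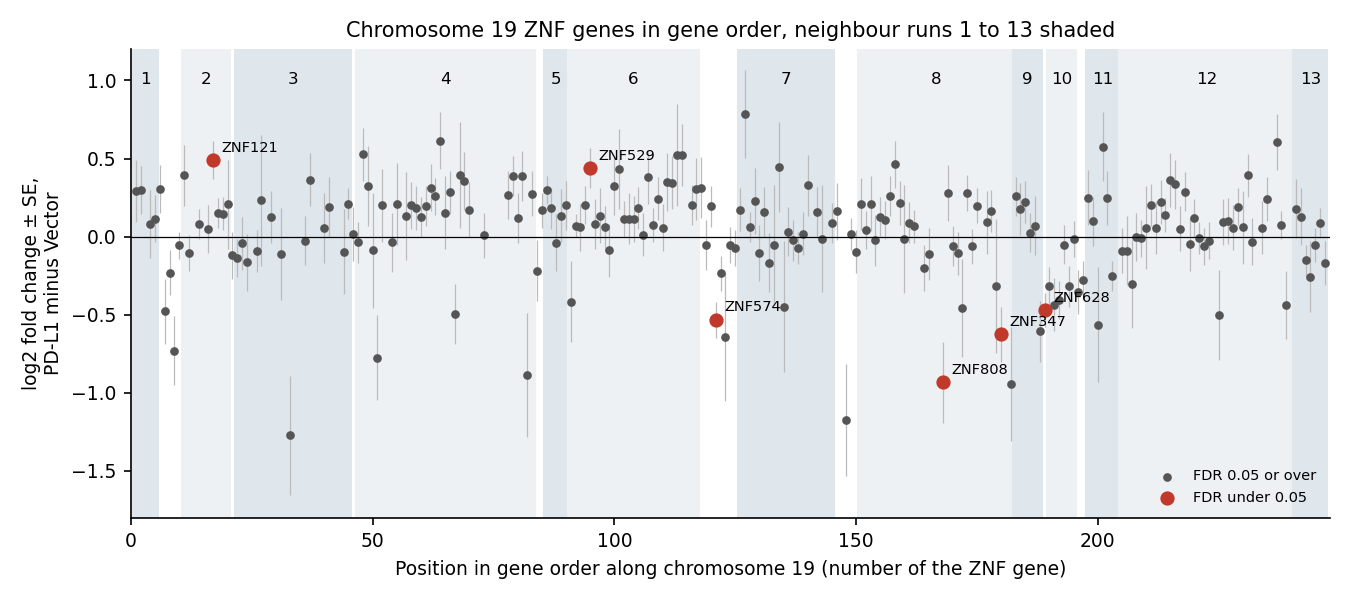
Log2 fold change ± SE (PD-L1 minus Vector) of each tested member in gene order along chromosome 19, with the 13 neighbour runs shaded and members past an FDR of 0.05 marked. The run from ZNF565 to ZNF573 lies mostly above 0 (24 of 26) and the run from ZNF579 to ZNF581 below it (0 of 6 above).

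The share of members called (2.83%) lay below those of other gene sets, which are given for description. ZNF genes of other chromosomes had 12 higher and 5 lower of 227 tested (7.49%), at a median level of 17.0 CPM and a median GC of 45.3%. The other protein-coding genes of chromosome 19 had 2 higher and 96 lower of 757 (12.9%), with a median log2 difference of -0.16 and a median GC of 60.2%. Without the offset, the members' median of 0.08 was close to the 0.10 of the ZNF genes elsewhere. It was opposite in sign to that of their chromosomal neighbours. With the GC and length offset these medians were 0.06, 0.12 and -0.06. In that fit 4 members rose and 8 fell (5.66%), against 32 and 5 of the ZNF genes elsewhere (16.3%). Of the chromosomal neighbours, 14.1% were called in it. These differences between gene groups were not tested. By level, 194 of the 212 members lay in the lower 2 of 5 equal classes of protein-coding genes by CPM. There, 2.08% of 96 and 3.06% of 98 members were called, against 8.28% and 11.1% of all protein-coding genes, and in the higher classes 8.66% to 9.96% of all protein-coding genes were.

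Of 8 members with a described function, none passed with all dishes and without the offset. ZNF91, which restrains SVA retrotransposons, had 11.6, 13.1 and 10.2 CPM in the PD-L1 dishes and 8.38, 9.53 and 8.61 CPM in the Vector dishes, without overlap (log2 0.39, FDR 0.0762, edgeR). ZNF93, which binds LINE retrotransposons, went the other way, with 0.732, 0.739 and 0.857 CPM against 1.24, 1.52 and 1.24 CPM (log2 -0.77, FDR 0.0982, edgeR). ZNF274, which brings SETDB1 to zinc finger genes themselves, had 25.0 ± 1.15 and 23.7 ± 1.12 CPM (SD, n = 3 each). ZNF473, a processing factor for histone messages, had 17.3 ± 1.66 and 17.1 ± 0.222 CPM. ZNF331, an imprinted gene, had 2.15, 2.09 and 2.46 CPM against 3.91, 3.42 and 2.85 CPM (log2 -0.61, FDR 0.0698, edgeR), and passed without PD-L1 dish 3 (FDR 0.0313). ZNF536, a repressor of neuronal differentiation, differed by -0.22 ± 0.20, and ZNF224, with 48.3% of its words shared with other genes, by -0.45 ± 0.42. Single dishes moved both values: ZNF536 was at 0.05 without Vector dish 1, and ZNF224 at -0.11 without Vector dish 2, -0.14 without PD-L1 dish 3 and -0.77 without PD-L1 dish 1.

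Among the partners of KRAB proteins, 24 co-repressor and heterochromatin genes were listed and 23 tested. By edgeR's test 1 rose and 0 fell, beside 1.55% and 7.20% of all genes, and the median log2 difference was 0.04. At an unadjusted p under 0.05, which 3735 of all 15818 tested genes met, TRIM28, DNMT1 and CHD4 were lower. At that threshold MPHOSPH8, PPHLN1 and SUV39H2 were higher besides the gene that passed. The one that rose was ATF7IP2, a relative of the SETDB1 partner ATF7IP, with 7.61, 9.06 and 7.07 CPM in the PD-L1 dishes and 5.48, 5.13 and 4.52 CPM in the Vector dishes (log2 0.64 ± 0.15, FDR 0.0157, edgeR). TRIM28, the co-repressor that KRAB boxes bind, had 561 ± 45.3 CPM against 658 ± 32.7 CPM (SD, n = 3 each), a log2 difference of -0.23 that did not pass (FDR 0.103, edgeR). It passed without PD-L1 dish 3, and the offset brought it to -0.08. SETDB1 had 43.8 ± 3.52 and 42.6 ± 1.60 CPM. The DNA methyltransferase DNMT1 had 265 ± 7.91 and 311 ± 7.73 CPM and just missed the threshold (log2 -0.23, FDR 0.0541, edgeR). MPHOSPH8 and PPHLN1 of the HUSH silencing complex differed by 0.22 and 0.16 without passing. Without PD-L1 dish 3, 6 genes of this list rose and 2 fell, beside 7.81% and 13.8% of all genes.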

How the data were processed

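The authors deposited raw counts per Ensembl gene for each of the 6 dishes, and a normalized table on a signal scale. Dividing raw by normalized values gave a constant ratio within each dish (largest deviation 5.03e-08%). The submitters' processing notes name CASAVA 1.8, STAR 2.5.1b, HTSeq 0.6.0 and hg19. Annotation and strand setting: not given in the sources used here. In R 4.3.3, edgeR 4.0.16 (filterByExpr, TMM, robust glmQLFit and glmQLFTest) tested the counts (PD-L1 minus Vector, Benjamini-Hochberg over 15818 genes, FDR under 0.05). The common biological coefficient of variation was 8.60%. CPM values are TMM-scaled and given as mean ± SD of 3 dishes. A second fit had offsets per dish from splines (5 df) of GC content and length. Scripts were tested on simulated data.

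GENCODE 29, on another build than the files, gave biotype, gene order, overlaps, and GC and length of the longest transcript, so no coordinates are given. KRAB boxes and fingers were matched by pattern in its translated longest coding sequences, in place of the RefSeq proteins first planned. Named were the members past the FDR, up to 6 per direction past it only with the offset, the 6 most abundant per kb, 8 members of known function and 8 co-repressor genes. Members at the ends of the range, just outside the threshold or at the ends of runs, and overlapping partners, were named after their values were seen. The members and lists were chosen with earlier results of these data known. Alternatives used other scalings (upper quartile, relative log expression, the authors' factors), DESeq2 1.42.0, limma 3.58.1 (voom and trend), other filters, single offsets, the replicate number as a block and each dish left out.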

Additional observations from a re-analysis of the deposited data

How the results depend on the processing

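The median log2 difference over members stayed positive, from 0.05 to 0.12 over all alternatives run, and no value that passed the test reversed. The number of higher members (2 with all dishes) was 5 with upper-quartile scaling, 1 with the authors' factors, limma-voom or limma-trend, 4 without the filter, 9 with the length offset, 4 with the GC and length offset, 12 with that offset and without PD-L1 dish 3, 0 at an FDR of 0.01, 1 among members that overlap no other gene and 0 to 16 with 1 dish left out. The number of lower members (4) was 12 without the filter, 8 with the GC and length offset, 2 with that offset and the replicate block, 11 with the offset and without PD-L1 dish 3, 0 at an FDR of 0.01, 0 without overlap and 0 to 14 with 1 dish left out. Over all genes 1384 passed, 2218 with the offset, 3523 with the offset and without PD-L1 dish 3, 530 at an FDR of 0.01 and 545 to 3512 with 1 dish left out; the high ends of these ranges are without PD-L1 dish 3. At an FDR of 0.01 edgeR called 0 members. At an unadjusted p under 0.05 there were 38, beside 3735 of all 15818 tested genes.

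Deviations of same-numbered dishes correlated at -0.21, -0.05 and -0.19, so no pairing by replicate number was seen. With 3 dishes per group these correlations cannot exclude a shared batch. With the replicate block, 3 members were higher, 9 lower and 1447 genes changed. Among named genes, 47 of 470 values under other alternatives newly passed and 13 no longer did. With 1 dish left out, 15 of 204 newly passed and 27 no longer did. The differences of 5 named genes changed sign, none of them past the test. ZNF428 (-0.07) was at 0.051 with the GC offset, 0.0077 with the GC and length offset and 0.0066 with that offset and the block, and from -0.22 to 0.0047 with 1 dish left out. ZNF581 (-0.01) was at 0.018 with upper-quartile scaling, 0.095, 0.046 and 0.040 with those offsets, and ran from -0.18 to 0.064 with 1 dish left out. ZNF473 (0.02) was at -0.041 with the offset and without PD-L1 dish 3. Leaving out 1 dish gave -0.065 to 0.061 for ZNF473, -0.38 to 0.050 for ZNF536 and -0.00029 to 0.10 for SETDB1. Depth limits the 31 members below the filter.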
